A study of Danio rerio with 2 samples.

Results

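The phototransduction cascade carries a light signal from an activated opsin to the membrane of a rod or cone photoreceptor. In the textbook scheme, the opsin activates the G protein transducin, transducin relieves the inhibitory subunit of phosphodiesterase 6 (PDE6), PDE6 hydrolyses cGMP and cGMP-gated channels close, after which an opsin kinase and an arrestin switch the opsin off. Rods and cones run the same steps with different members of each family, so most steps have a rod form and a cone form. The genes described here were 10 members of this cascade without the opsins, namely *gnat1*, *gnat2*, *gngt2b*, *pde6c*, *pde6h*, *grk7a*, *grk1b*, *arr3a*, *saga* and *sagb*, out of 12307 genes with a measured ratio. Probes were assigned to a member through the RefSeq accession of the probe, and 21 of the 38536 probes kept belonged to the 10 members. The gene table lists *pde6h* under the symbol *pde6ha*. The members were chosen by their log2 ratios, since photoreceptor genes had already been seen to be lower on these same arrays. Their ratios below are therefore a description.

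Total RNA was taken from zebrafish embryos at 3 dpf of a control group (Ctrl MO) and a knockdown group (*miR-132* MO). Each had received 8 ng of a morpholino, an antisense oligonucleotide, and that of the knockdown group is directed against *miR-132*. Injection was at the one-cell stage, the chorion was removed with pronase on the first day, and the methods describe 1-phenyl-2-thiourea in the medium of embryos, which both groups would then share. RNA of whole animals was labelled with Cy3 and each group was hybridised to 1 array. Neither the number of animals per array nor their strain is given in the sources used here. No replicate error can be given and no test was possible, and each ratio compares 2 arrays and not 2 conditions.

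Both arrays carried 43603 transcript probes and lay on 1 slide. The 75th percentile of the intensity was 731 in Ctrl MO against 866 in *miR-132* MO, and 88.0% and 80.3% of the transcript spots, respectively, were well above background. Intensities are given below as measured. Ratios were taken after log2 intensity had been set relative to that percentile of each array, which is why they are lower than the intensities alone would give. A gene ratio is the mean log2 ratio of its probes. The median SD of the log2 ratio over repeated spots of a probe was 0.10 across 27 probes printed on 3 to 5 usable spots. Single probes had SDs from 0.014 to 0.47. The spot SD and the spread of repeated spots below mean the median. The scanner software's own error came to between 0.20 and 0.21 for the log2 ratio of a single member probe. Both kinds of error cover the array and not the animals. No probe was named for a *miR-132* precursor (0 probes), so the knockdown itself could not be checked on the arrays.

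All 10 members were lower in *miR-132* MO by at least 1.5-fold, against 7.75% of all genes, and 9 of the 10 were at least 2-fold lower, against 3.4% of all genes. Of the 21 probes, 21 were at least 1.5-fold lower, against 8.49% of all probes, and 19 were at least 2-fold lower, against 3.27%. Their ratios chose the members, so nothing is read from these counts. The median log2 ratio of the members was -1.57, beside 0.0015 for all genes. On either array each of the 21 probes was well above background, and the dimmest reading among them was 130.25. The log2 ratio of a probe was between 4.44 and 12.7 times the scanner error of that ratio. This error was nearly the same for each probe, at 0.204 to 0.208. The multiple thus restates the ratios that chose the members, and nothing is read from it. In RNA from whole animals, fewer photoreceptors and less RNA per photoreceptor cannot be told apart.

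**Figure D1:**
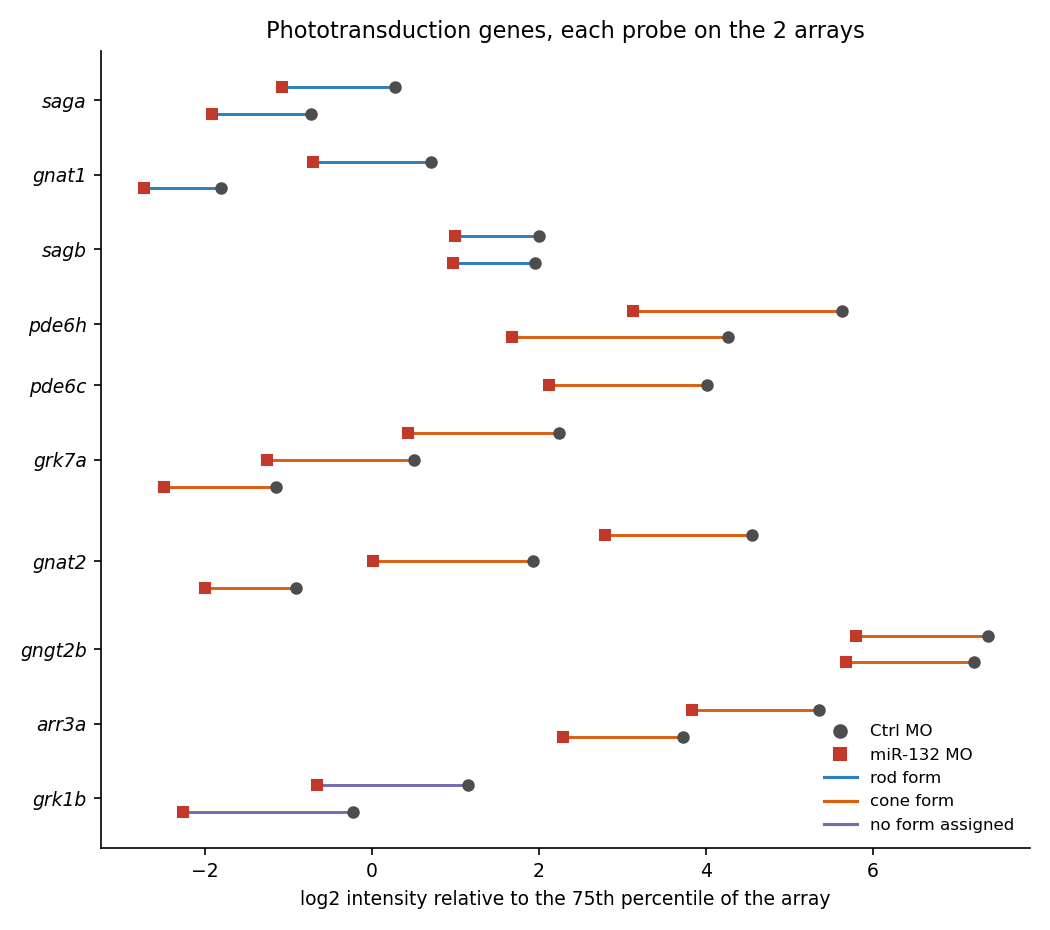
Log2 intensity relative to the 75th percentile of each array (x axis) for every probe of the 10 members (rows), with Ctrl MO as grey circles, *miR-132* MO as red squares and the line coloured by rod form, cone form or no assigned form. In each of the 21 probes the *miR-132* MO value lies to the left of the Ctrl MO value, by 0.93 to 2.59 on the log2 scale.

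Transducin was covered by its rod alpha subunit, its cone alpha subunit and a cone gamma subunit. *gnat1*, the rod alpha subunit that binds GTP, read 1198 in Ctrl MO against 531 in *miR-132* MO on its brighter probe. Its dimmer probe read 209 and 130.25. The log2 ratios of the probes were -1.42 and -0.93, and the mean of -1.17 puts *gnat1* at 44.3% of the Ctrl MO level. Both probes were lower, and their ratios lay 0.49 apart, which is more than the spread of repeated spots.

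*gnat2*, the cone alpha subunit, had 3 probes. The brightest read 17234 and 6029.6, the next 2781 and 878, and the dimmest 389 and 216. All 3 were lower in *miR-132* MO, with log2 ratios of -1.76, -1.91 and -1.09 and a mean of -1.59. The dimmest probe stood apart from the other 2, and the 3 ratios spanned 0.82, the widest span among the members.

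*gngt2b*, a gamma subunit of cone transducin that anchors the complex to the membrane, was among the brightest features. Its probes read 121373 and 108737 in Ctrl MO against 48323 and 44530.1 in *miR-132* MO. The log2 ratios of -1.57 and -1.53 differed by 0.041, less than the spread of repeated spots, and the mean of -1.55 is 34.1% of the Ctrl MO level. These readings were taken from the low-gain pass of the scanner on both arrays, and neither was saturated.

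PDE6 was represented by cone subunits only, since no probe that was kept carried a matched accession of the rod subunits *pde6a*, *pde6b*, *pde6ga* and *pde6gb*. *pde6h*, the small inhibitory subunit of cone PDE6 that transducin displaces, had the lowest ratio of the 10. Its probes read 36364 and 14096 in Ctrl MO against 7583 and 2768 in *miR-132* MO. At log2 ratios of -2.51 and -2.59 the probes differed by less than the spot SD, and the mean of -2.55 is a 5.86-fold lower level, or 17.1% of Ctrl MO. Only 40 of the 12307 genes had a lower ratio. The brighter probe was read from the low-gain pass on the Ctrl MO array alone, while the dimmer probe was read from the normal pass on both, and the ratios of the pair were close.

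*pde6c*, the catalytic subunit of cone PDE6, had 1 probe, at 11778.5 in Ctrl MO against 3772 in *miR-132* MO. Its log2 ratio was -1.89, a 3.70-fold lower level. The inhibitory subunit was thus lower than the catalytic subunit by a further 0.66 on the log2 scale.

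The opsin kinases phosphorylate the activated opsin and so start its shut-off. *grk7a*, a cone opsin kinase, read 3451 and 1174 on its brightest probe, 1039.8 and 363 on the next and 329.8 and 155 on the dimmest. The log2 ratios were -1.80, -1.76 and -1.34, with a mean of -1.63. The brighter pair differed by less than the spot SD and the dimmest probe was less reduced.

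*grk1b* belongs to the rhodopsin kinase family and was assigned to neither form here. Its probes read 1621 and 625 in Ctrl MO against 549.9 and 181 in *miR-132* MO. The log2 ratios of -1.81 and -2.03 gave a mean of -1.92, a 3.78-fold lower level and the second lowest ratio among the members. Its value lay next to *pde6c* in the order, at a distance of 0.03, which is under the spot SD.

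Arrestins bind the phosphorylated opsin and block its contact with transducin. *arr3a*, a cone arrestin, read 29903 and 12336 on its brighter probe and 9672 and 4245 on the other. Both log2 ratios were similar, at -1.52 and -1.43, and the mean of -1.48 was the smallest reduction among the 6 cone members.

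The rod arrestins were less reduced than *arr3a*. *saga* read 885 and 442 in Ctrl MO against 411 and 231 in *miR-132* MO, with log2 ratios of -1.35 and -1.18 and a mean of -1.27. *sagb* read 2926 and 2833 in Ctrl MO against 1730.3 and 1693 in *miR-132* MO. Its probes gave -1.003 and -0.988, a difference of 0.015, and the mean of -0.995 was the smallest reduction of the 10, a 1.99-fold lower level.

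**Figure D2:**
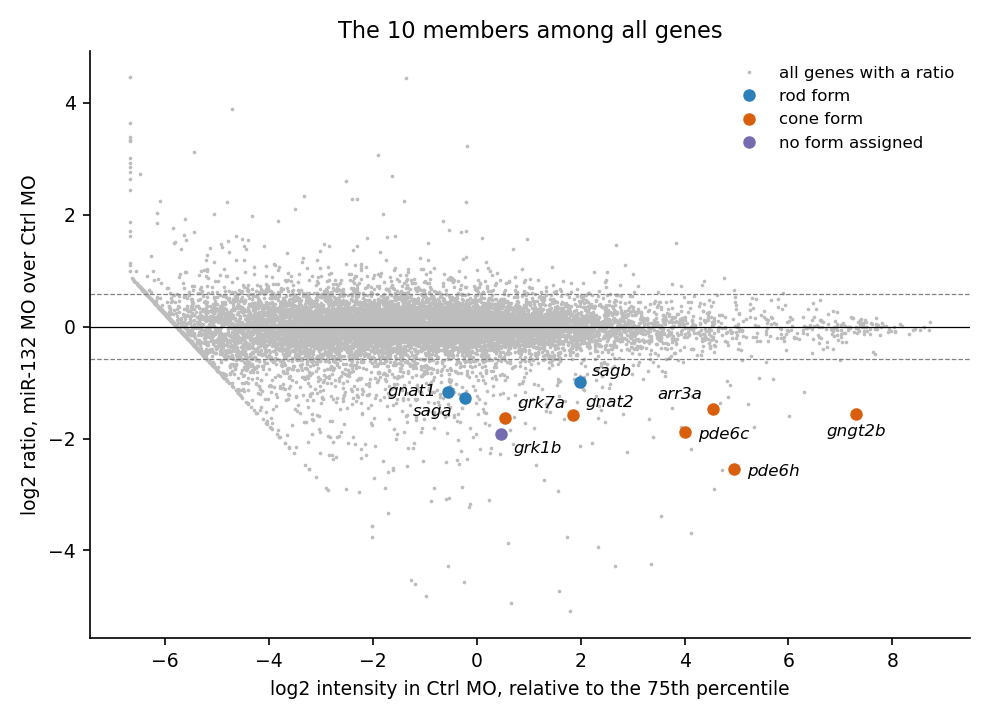
Log2 ratio between *miR-132* MO and Ctrl MO (y axis) against the log2 intensity in Ctrl MO relative to the 75th percentile (x axis) for the 12307 genes (grey), with the 10 members coloured by form. Dashed lines mark a 1.5-fold difference, and the straight left edge of the cloud comes from readings set to the lowest intensity above background. The members lie between -2.55 and -0.995, below the dashed line, across a wide range of intensity.

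In order of their ratios, the members ran *pde6h*, *grk1b*, *pde6c*, *grk7a*, *gnat2*, *gngt2b*, *arr3a*, *saga*, *gnat1* and *sagb*. From 40 genes (0.325%) for *pde6h* to 421 genes (3.42%) for *sagb* had a lower ratio than the member. Probes of 1 member differed by up to 0.82, so the order of most neighbours is not resolved. Probe ratios overlapped in 5 of the 9 neighbouring pairs, among them *saga* with *gnat1* and *gnat1* with *sagb*. The widest gap was below *pde6h*, whose less reduced probe at -2.51 lay under the lowest probe of any other member, at -2.03 in *grk1b*. In the other 3 pairs without overlap the nearest probes were less than 0.09 apart, under the spot SD.

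The cone forms were more reduced than the rod forms. The 6 cone members had log2 ratios from -2.55 to -1.48 with a median of -1.61, which is 32.7% of the Ctrl MO level, and the 3 rod members from -1.27 to -0.995 with a median of -1.17, or 44.3%. As gene means the groups did not overlap, and the gap between *arr3a* and *saga* was 0.21, about the scanner error of 1 probe. Among single probes they did overlap, with 2 of the 13 cone probes inside the rod range of -1.42 to -0.93 and the other 11 below it. Genes of a form are not replicates, and the difference was not tested.

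Intensity moved with this contrast. The rod probes read 209 to 2926 in Ctrl MO and the cone probes 329.8 to 121373, and in 7 of the 9 members with more than 1 probe the dimmest probe showed the smallest reduction. The exceptions were *pde6h* and *grk1b*. Among the 4 cone probes within the intensity range of the rod probes, the log2 ratios ran from -1.91 to -1.09 with a median of -1.55, against -1.09 for the 6 rod probes. These 4 probes belong to only 2 genes, *gnat2* and *grk7a*, and the ranges overlapped. At close intensities, the *gnat2* probe at 389 had a ratio of -1.09 and the *saga* probe at 442 a ratio of -1.18. The other cone probes of this range were lower than rod probes of close intensity. *gnat2* at 2781 had -1.91, against -0.988 for *sagb* at 2833. *grk7a* at 1039.8 had -1.76, against -1.42 for *gnat1* at 1198 and -1.35 for *saga* at 885. *grk7a* at 329.8 had -1.34, against -1.18 for *saga* at 442. The part of intensity in the contrast was not tested.

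Cone genes were also set against rod counterparts of the same protein family, which gave differences that do not depend on how the arrays were scaled to each other by a constant. The other genes of these pairs came from the wider cascade list, and the pairs were formed after the values were seen. *gnat2* was below *gnat1* by 0.41 on the log2 scale, with the cone probe lower in 5 of 6 probe pairs. *gngt2b* was below *gngt1*, the gamma subunit of rod transducin, whose single probe read 4235 and 2349 for a log2 ratio of -1.10. The difference was -0.46. Against *saga* and *sagb*, *arr3a* was lower by 0.21 and 0.48, and *arr3b*, the other cone arrestin, by 0.81 and 1.09. *arr3b* read 4634, 2993 and 2802 in Ctrl MO against 1241, 819 and 841 in *miR-132* MO, with a mean log2 ratio of -2.08. In these arrestin pairs every cone probe was below every rod probe.

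The beta subunits went in both directions. *gnb3b*, the beta subunit of cone transducin, had 5 probes with log2 ratios from -2.11 to -1.47 and a mean of -1.71. *gnb1b*, of the beta subunit type that rods use and that many other cells also use, was at -0.02 over 4 probes, and *gnb1a* at -0.05. *gnb3b* was below *gnb1b* by 1.70 on the log2 scale. In contrast *gnb3a*, the other gene of the cone type, was at 0.53 and lay above *gnb1b* by 0.55 and above *gnb1a* by 0.58. *gnb3a* is also counted in the bipolar list below, so its ratio need not be that of cones. The kinases gave no order for *grk7a*. The single probe of *grk1a*, a rhodopsin kinase, read 33 in Ctrl MO and was too dim in *miR-132* MO to stand well above background. Its ratio of -1.15 is therefore uncertain in either direction, and *grk1a* may be as low as *grk7a* or lower. The same uncertainty holds for the ratios given below for probes too dim in *miR-132* MO. *grk7b*, the other cone kinase, was at -0.41, with 1 of its 2 probes also under the background limit there.

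**Figure D3:**
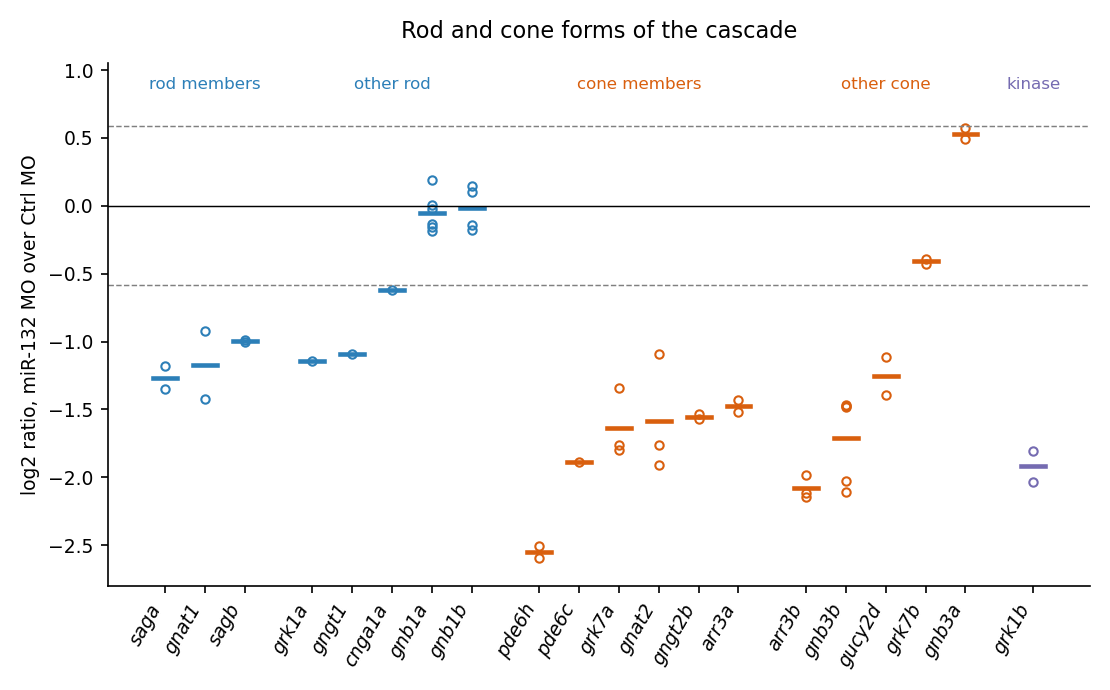
Log2 ratio between *miR-132* MO and Ctrl MO (y axis) for the rod and cone genes of the cascade (x axis), with probes as open circles and gene means as bars, and dashed lines at a 1.5-fold difference. The cone members lie from -2.55 to -1.48 and the rod members from -1.27 to -0.995, while *gnb1a*, *gnb1b* and *gnb3a* lie near or above 0.

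The wider cascade was followed in a list of 45 further genes, of which 27 were measured. Of these, 15 were lower by at least 1.5-fold and 1 was at least 1.5-fold higher, against 7.75% lower and 4.26% higher of all genes, and the median log2 ratio was -0.62. The lowest after *arr3b* were *guca1c* at -2.02, a calcium sensor of the guanylate cyclase that restores cGMP, *gnb3b* at -1.71 and *rcvrn3*, a calcium-binding protein of the recoverin family, at -1.66. The highest were *unc119b*, a chaperone of lipid-modified proteins, at 0.63, and *gnb3a* at 0.53. *guca1c* read 680 and 481 in Ctrl MO against 209 and 133 in *miR-132* MO. *rcvrn3* read 10601 and 521 against 3531 and 221. Both probes of *guca1c* and of *rcvrn3* were lower.

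Split by form, 3 of the 5 other rod genes and 3 of the 5 other cone genes measured were at least 1.5-fold lower. The counts of this paragraph stand beside 7.75% lower and 4.26% higher of all genes. The rod genes within 1.5-fold were *gnb1a* and *gnb1b*. The other 3 ran from -1.15, the uncertain ratio of *grk1a*, to -0.62 in *cnga1a*, whose single probe read 90 and 69. Among 17 measured genes listed under neither form, 9 were lower, 1 was higher and 7 were within 1.5-fold. Whether each is used by rods, by cones or by both was not checked. That list holds the guanylate cyclase activators, recoverins, the *gnb5* and *rgs9* genes that end the transducin signal, phosducin and chaperones. For 18 genes of the 45 no probe with a matched accession was kept, among them the cone channel genes *cnga3a*, *cngb3.1* and *cngb3.2*.

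Relatives of the members that work outside the photoreceptor cascade gave a comparison within the same protein families. It rests mainly on G protein subunits, with 21 of the 25 listed measured. Of the 19 arrestin, kinase and phosphodiesterase relatives listed, only 6 were measured. In 27 measured genes for other G protein subunits, beta-arrestins, other receptor kinases and another phosphodiesterase, 1 was at least 1.5-fold lower and 0 were higher, beside 7.75% and 4.26% of all genes, with a median log2 ratio of 0.02. The exception was *gng13a*, at -1.62 on 1 probe that read 541 and 209. Its mammalian counterpart is known from taste cells and from ON bipolar cells of the retina. The related gene *gng13b*, named after its values were seen, went the other way, at 0.31 with both probes higher. The next lowest were *arrb1*, a beta-arrestin, at -0.41, *gna13b* at -0.23 and *gnb2* at -0.19, and the highest were *gnb4b* at 0.58 and *gng2* at 0.38. Without *gng13a* the 26 others lay between -0.41 and 0.58.

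Photoreceptor identity was checked with markers. All 6 visual opsin genes measured were at least 1.5-fold lower, beside 7.75% of all genes. Photoreceptor genes had already been seen to be lower on these arrays, so nothing is read from this count. The median log2 ratio was -1.35, the lowest -1.80 (*opn1mw1*) and the highest -0.59 (*opn1lw2*). *opn1lw2* lay at the 1.5-fold line, with probes at -0.84 and -0.33. *rho*, the rod opsin, was at -1.24, close to the rod members, and the 5 cone opsins ran from -1.80 to -0.59 on either side of it. Of 17 outer segment genes listed, 8 were measured and 5 of these were lower, beside 7.75% of all genes. The lowest was *prph2b*, a disc rim protein, at -1.65, while *prom1a* was at -0.08. Among the 5, *pcdh15b*, named for its dim reading, had a single probe at 25 in Ctrl MO. That probe was too dim in *miR-132* MO, so the ratio is only a bound. A probe of *rom1a*, also among the 5, had the same shortfall.

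Of 11 transcription factors of photoreceptors measured, 0 were at least 1.5-fold lower and 1 was higher, beside 7.75% and 4.26% of all genes. These 1.5-fold counts are too small to set the list apart from all genes. By sign, 10 factors were above 0 and 1 below, beside 6180 genes above and 6127 below among all genes. The median of the factors was 0.35, and this shift was not tested. *nr2e3*, a nuclear receptor of photoreceptors, was highest at 1.10, with its matched probe at 156 in Ctrl MO against 395 in *miR-132* MO. A further *nr2e3* probe, named only in the authors' selection of probes past a fold threshold, read 284 and 642. Its log2 ratio of 0.93 was not counted. *neurod1* was lowest at -0.07. *crx*, a homeobox factor of photoreceptors and their precursors, was named after its values were seen. It read 8241 and 7942 in Ctrl MO against 13005 and 11492 in *miR-132* MO, a log2 ratio of 0.35 with both probes higher.

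Genes of neighbouring cells were counted in the same way, to be read beside the same 7.75% and 4.26% of all genes, and their part in the members' ratios was not tested. Among 6 pineal photoreceptor genes 1 was lower and 1 higher, from *asmt*, which makes melatonin, at -1.11 on a probe that missed this background limit on the *miR-132* MO array, to *aanat2* at 0.78. *exorh*, the pineal opsin, was named after its values were seen. Its bright probe read 39296 and 53182, and its dimmer probe 49 and 62, so both were slightly higher in *miR-132* MO after scaling. Pineal cells share parts of the cascade, and RNA of whole animals does not separate them from the retina.

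In the bipolar list 2 of 10 genes were lower, with *cabp5b*, a calcium-binding protein, lowest at -1.72 and *vsx1* highest at 0.59. The amacrine and horizontal list had 2 of 12 lower, from *calb2a* at -0.97 to *onecut1* at 0.46. Ganglion cell genes ran from *pou4f3* at -0.10 to *atoh7*, an early ganglion cell factor, at 0.94, with 0 of 7 lower and 2 higher. The *pou4f3* probe had the same shortfall and its reading was raised to the dimmest level well above background, so its ratio is only a bound. Of the Müller glia genes 1 of 10 was lower, *slc1a2a* at -1.63 on a dim reading, and *glulb* was highest at 0.48. In the pigment epithelium list 3 of 7 were lower, led by *rpe65a*, the isomerase that regenerates chromophore, at -0.94, and *lrata* was highest at 0.18. Medians of these 5 lists were -0.33, -0.06, 0.14, -0.02 and -0.42, in the order given. No comparison with the median of the members is drawn, since low ratios chose the members.

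**Figure D4:**
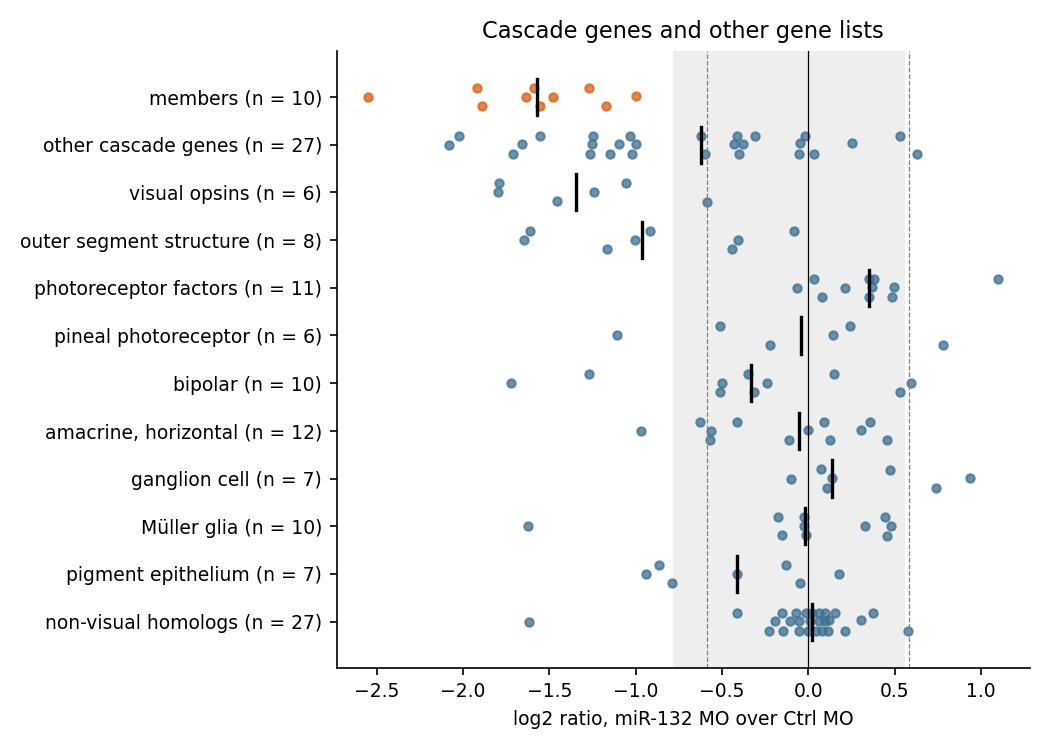
Log2 ratio between *miR-132* MO and Ctrl MO (x axis) of each measured gene in 12 lists (rows, with the number of genes), with the median as a black bar, dashed lines at a 1.5-fold difference and grey shading from the 5th to the 95th percentile of all genes (-0.78 to 0.55). The members, opsins and outer segment genes lie mostly to the left of the shading, while the photoreceptor factors and the non-visual homologs lie mostly within it.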

How the data were processed

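Per the labels, total RNA of 2 groups of zebrafish was run on 1 one-colour Agilent array each. The authors deposited the processed intensity of each spot, background-subtracted within the array by Agilent Feature Extraction 10.7 with no scaling of one array to the other. A second table that the authors deposited holds log2 values, normalized by them, for probes past a fold threshold, and a ratio column. Its ratios were not used, and its log2 values served as an alternative.

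Here, outlier spots were left out, log2 intensity was set relative to the 75th percentile of the transcript spots, and probes well above background on at least 1 array were kept. A dim reading below the dimmest probe well above background was raised to that level. Probes were named by RefSeq accession through the NCBI gene table of assembly GRCz12tu, and 25069 of 26981 accessioned probes matched. The array design is annotated on Zv8, so no coordinates are given. A gene ratio is the average over its probes. The members and lists were chosen with earlier results of these data known. Named genes are the 10 members, the 4 lowest and 2 highest in the cascade and homolog lists, and the lowest and highest in each retinal list, with exceptions marked in the text. No test was run with 1 array per group. The code was tested on simulated data. Alternatives were quantile, loess (span 0.3), median, spike-in and percentile scaling, normexp (offset 50, on the median signal, since the mean signal is not a column of these files), 2 filters on dim probes, other ways to combine probes, a 2-fold threshold and the authors' log2 values. The software was R 4.3.3 with limma 3.58.1 and Python 3.11.15 with numpy 2.4.6, pandas 2.3.3, matplotlib 3.10.9 and statsmodels 0.14.6.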

Additional observations from a re-analysis of the deposited data

How the results depend on the processing

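No paired analysis was possible because neither group has another array. Over the alternatives, 129 values of the 10 members lay between -2.59 and -0.82, 0 of them above the 1.5-fold line, and 22 moved by more than the SD of repeated spots. All 10 members were at least 1.5-fold lower in each scaling, and 9 with a 2-fold threshold. In the main scaling 7.75% and 3.4% of all genes were lower by these folds. These shares were not computed for the alternatives. Probes taken one by one gave 21 of 21, beside 8.49% of all probes. Low ratios on these arrays chose the members, so nothing is read from these counts. With normexp the rod median was -0.96, the cone minus rod difference -0.69 and the wider cascade median -0.50. With the brightest probe the rod median was -1.35, the cone median -1.78 and the wider cascade median -0.82. The median over probes gave a cone median of -1.76 and a difference of -0.59. With both arrays above background the wider cascade median was -0.81. The cause of these moves was not tested. Over the alternatives the cone minus rod difference stayed between -0.69 and -0.39, the latter without *sagb*, which was chosen after seeing the data. The median of all genes moved by at most 0.07, with spike-in scaling. Counting further cascade genes named only in the authors' table, also chosen after seeing the data, gave a median of -1.03. That table lists probes past a fold threshold, which favours large ratios. The single array per group limits every value.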

Other observations

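In all, 9 further cascade genes had a probe that only the authors' table of selected probes names. That table lists probes past a fold threshold, so the names favour large ratios and these genes were left out of the counts. Those read well above background on both arrays were *gngt2a*, a cone transducin gamma subunit, at a log2 ratio of -1.09 (3844 in Ctrl MO against 2139.5 in *miR-132* MO), *slc24a2*, the cone sodium, calcium and potassium exchanger, at -1.499 (583 and 244), *rgs9a*, which speeds the shut-off of transducin, at -1.58 (353 and 139.8), *pde6ga*, the inhibitory subunit of rod PDE6, at -1.27 (124 and 61), *pdca*, a phosducin, at -1.20 (179.9 and 93) and *cnga1b*, a rod channel subunit, at -1.03 (442 and 256). The rod genes *pde6b*, *slc24a1* and *cngb1a* read 14, 16 and 36 in Ctrl MO and missed the background limit on the *miR-132* MO array. With these 9 added, 22 of 36 cascade genes were at least 1.5-fold lower and 1 was higher, beside 7.75% and 4.26% of all genes. The fold threshold of that table selected the 9, so nothing is read from this count.

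The authors' table also listed 18 of the 21 member probes, of 9 members. The difference of its log2 values was within 0.05 of the log2 ratio given here for each of the 18. Not listed were both probes of *sagb*, at -1.003 and -0.988, and the dimmer probe of *gnat1*, at -0.93. These were rod probes and the least reduced of the 21, though each was more than 1.5-fold lower here. The reason for their absence was not tested.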
